A study of Homo sapiens with 8 samples.

Results

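The insulin receptor, PI3K and FOXO genes form a signalling route from the cell surface to the nucleus, and 9 of them were followed in HuH7 cells recovering from oxygen and glucose deprivation. The genes were found by symbol in the deposited count table, from a set named by pathway role with earlier results of these data known: the receptors INSR and IGF1R, the adaptors IRS1 and IRS2, the PI3K catalytic subunit PIK3CA, the mTORC2 subunit RICTOR, the kinase SGK3 and the transcription factors FOXO1 and FOXO3. They are 9 of 15767 genes in that table, and all 9 were among the 12928 genes tested.

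RNA-seq was performed on 8 libraries in 2 groups of 4, all from wildtype HuH7 cells, a tumorigenic epithelial-like line that was derived from a human hepatoma. All cells spent 6 h without glucose at 1% oxygen and then 6 h under normoxia, a sequence named oxygen-glucose deprivation and reperfusion (OGD/R). For those last 6 h the medium held DMSO alone (I/R+DMSO, n = 4) or 20 µM of ginsenoside Rk2, a ginseng saponin, dissolved in DMSO (I/R+Rk2, n = 4). Both groups therefore had OGD/R and DMSO, and the values compare Rk2 with its solvent after OGD/R in 1 hepatoma line. The labels number the replicates without saying whether they were separate cultures, so p-values measure the spread between these samples, which may be technical.

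Insulin and insulin-like growth factors bind receptor kinases that phosphorylate the IRS adaptors, and these recruit PI3K, which makes the membrane lipid that draws AKT and related kinases to the plasma membrane. Active AKT phosphorylates FOXO factors and keeps them out of the nucleus. In the liver, FOXO factors otherwise drive genes of fasting, stress defence and growth arrest, and they raise the transcription of upstream genes such as INSR and IRS2, a known feedback loop.

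The start of transcription of 8 of the 9 genes had an entry in RefSeq (GRCh38.p14), and the 250 bases before it were searched on both strands for the FOXO-binding letters GTAAACA and the insulin response letters CAAAACA. IRS2 held TGTTTTG, the reverse complement of CAAAACA, 40 bases before the RefSeq start. PIK3CA held TGTTTAC, the reverse complement of GTAAACA, 149 bases before its RefSeq start. The other 6 windows held neither, and a match here is a description of letters, not of a bound site. The annotation used for the gene positions given below starts PIK3CA earlier, at chr3:179148114. By that annotation most of the PIK3CA window, with the match, lies inside the gene and not before it. Among 35116 human promoter windows of the same length, 2.98% held GTAAACA, 4.30% held CAAAACA and 7.07% held either. The windows of IRS2 (chr13:109786584-109786833, minus strand) and PIK3CA (chr3:179148107-179148356, plus strand) are shown because they hold a match, and that of FOXO3 (chr6:108559575-108559824, plus strand) because FOXO3 and IRS2 were the genes that still rose after the correction for gene length. Capitals mark the matched letters.
IRS2: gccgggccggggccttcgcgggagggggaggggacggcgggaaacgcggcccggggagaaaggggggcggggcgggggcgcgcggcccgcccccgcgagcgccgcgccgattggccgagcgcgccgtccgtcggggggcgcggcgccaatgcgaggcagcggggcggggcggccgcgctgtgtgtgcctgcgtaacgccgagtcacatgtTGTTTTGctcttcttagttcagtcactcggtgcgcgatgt
PIK3CA: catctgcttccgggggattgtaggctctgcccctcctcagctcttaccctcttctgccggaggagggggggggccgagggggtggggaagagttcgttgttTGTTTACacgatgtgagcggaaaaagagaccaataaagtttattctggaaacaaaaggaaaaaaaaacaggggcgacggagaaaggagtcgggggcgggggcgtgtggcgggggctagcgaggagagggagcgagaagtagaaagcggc
FOXO3: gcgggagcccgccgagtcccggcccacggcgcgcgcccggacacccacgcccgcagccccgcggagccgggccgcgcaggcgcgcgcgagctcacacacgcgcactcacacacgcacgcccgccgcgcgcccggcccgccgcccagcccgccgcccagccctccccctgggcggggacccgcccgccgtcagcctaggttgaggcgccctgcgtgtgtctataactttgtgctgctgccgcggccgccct
The IRS2 and FOXO3 windows are rich in G and C, at 76.4% and 80.4%, with 42 CpG pairs each. The PIK3CA window, placed by the RefSeq start, has 57.6% G and C and 15 CpG pairs. These values are close to the medians of 58.0% and 11 over all windows.

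Total counts ranged from 18428485 to 21447045 in I/R+DMSO and from 16374082 to 30310479 in I/R+Rk2. The library I/R+DMSO replicate 1 stood apart: its counts differed from those of the other I/R+DMSO libraries by 25.6 to 30.1 as chi-square per degree of freedom, against 16.6 to 21.3 for all other pairs within a group. Results that rest on it are given with and without it. Of 11 hepatocyte-lineage markers, 10 had a mean above 1 FPKM, with summed levels of 4641 to 5131 FPKM in I/R+DMSO and 4986 to 5127 FPKM in I/R+Rk2. Of 6 endothelial markers, 5 (VWF, CDH5, KDR, TEK and EMCN) were listed at 0 in every library, as were the leukocyte markers PTPRC and MS4A1. The 6 endothelial markers summed to 1.07 to 1.87 FPKM in I/R+DMSO and 1.11 to 2.10 FPKM in I/R+Rk2, and the 7 stellate and fibroblast markers to 5.74 to 7.17 and 5.56 to 6.96 FPKM. The 7 leukocyte markers summed to 360 to 401 and 353 to 405 FPKM, of which all but at most 32.7 FPKM was LYZ. The 5 cholangiocyte markers summed to 108 to 113 FPKM in I/R+DMSO and 105 to 108 FPKM in I/R+Rk2. Of the tested markers, 4 were called in edgeR: KRT19 of the cholangiocyte list was lower (62.8 ± 5.20 against 43.0 ± 1.95 CPM, ± SD, 4 libraries each, -0.55 on the log2 scale, adjusted p = 0.00205), the leukocyte marker CD14 was lower at under 1 CPM on average in both groups (-1.25, adjusted p = 0.0430), and the hepatocyte markers APOB (0.61, adjusted p = 0.0124) and FGB (-0.27, adjusted p = 0.0462) moved in opposite directions. SOX9, the largest term of the cholangiocyte sum, was at 0.18 (edgeR adjusted p = 0.0715). The part of these differences in the results was not tested. All 8 libraries were of the HuH7 line, and in bulk samples fewer cells that hold an RNA and less of it per cell cannot be told apart.

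Before the correction for gene length, Rk2-treated cells had more RNA of 5 of these genes. Of the 9, 5 rose (IRS2, FOXO3, RICTOR, PIK3CA and INSR), none fell, and IRS1, SGK3, FOXO1 and IGF1R did not pass the test, at an adjusted p of 0.05 in edgeR's quasi-likelihood test with Benjamini-Hochberg adjustment over all tested genes. Over all 12928 genes 18.2% passed in either direction, 11.0% as higher and 7.23% as lower in I/R+Rk2. In the longest of 10 equal classes of gene length, 25.0% passed as higher. The median log2 fold change of the 9 was 0.46, beside -0.00211 for all tested genes and 0.21 for the class of longest genes, which holds 7 of the 9, and it was 0.24 after the length correction. Of the 5, IRS2 and RICTOR were also more than 1.5-fold higher, a threshold that 2.46% of genes passed upward. In 7 of the 9, all but IGF1R and FOXO1, each I/R+Rk2 library was above each I/R+DMSO library. Of all tested genes 15.4% showed this, and of the longest class 34.9%. Without I/R+DMSO replicate 1 again 5 rose, with SGK3 in place of INSR, where 10.2% of genes rose. Only 3 rose without I/R+DMSO replicate 3 or without any 1 of the I/R+Rk2 libraries: IRS2, FOXO3 and RICTOR. Over all genes fewer rose in those fits too, at 861 to 1041 genes, against 1416 with all 8 libraries. After the length correction 2 of the 9 rose and 1 fell, beside 7.97% and 9.65% of all genes.

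**Figure D1:**
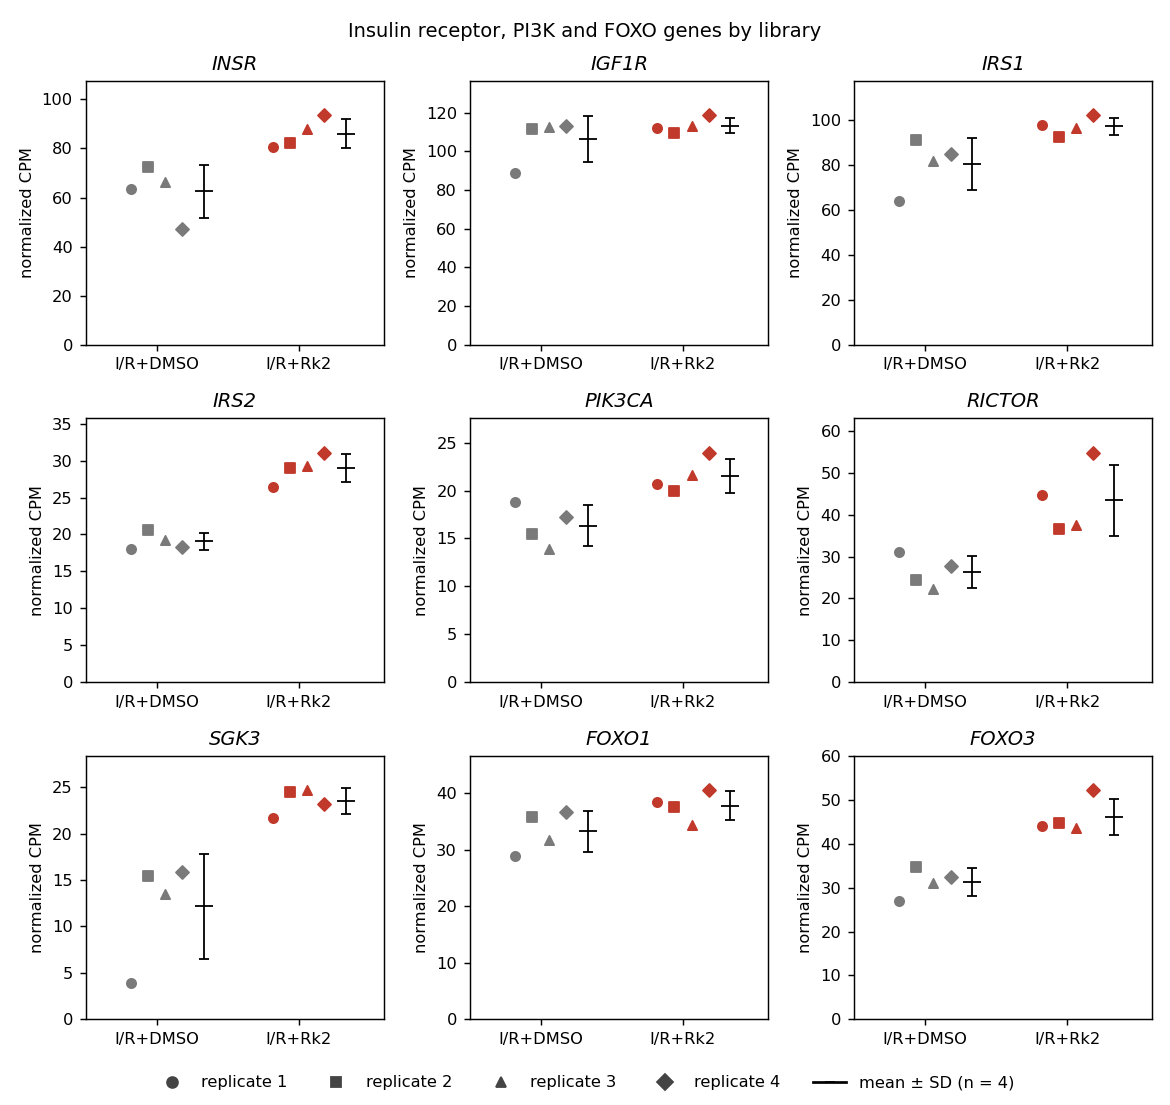
Counts scaled to library size (CPM, scaled by TMM factors) of the 9 genes in each library, with grey symbols for I/R+DMSO, red for I/R+Rk2, one symbol shape per replicate number and black bars for mean ± SD (n = 4). The groups are apart in 7 panels and overlap for IGF1R and FOXO1, and SGK3 has 1 low I/R+DMSO library at 3.87 CPM.

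The insulin receptor INSR, the receptor kinase through which insulin acts on hepatocytes, lies on the minus strand at chr19:7112255-7294034 (gene positions are those of GENCODE 29 on GRCh38). Its level in I/R+DMSO replicates 1 to 4 was 63.6, 72.5, 66.5 and 47.2 CPM, and in I/R+Rk2 replicates 1 to 4 it was 80.4, 82.1, 87.9 and 93.4 CPM. Every Rk2-treated library was above every control, and replicate 4 was the lowest of the controls. The means were 62.4 ± 10.8 and 86.0 ± 5.92 CPM (± SD, 4 libraries each), or 0.46 on the log2 scale (standard error 0.124, edgeR adjusted p = 0.0369). The rise was 0.35 (adjusted p = 0.0193, edgeR) without I/R+DMSO replicate 4. The call held without I/R+DMSO replicate 2 or 4 and was lost when any 1 of the 6 other libraries was left out, with adjusted p-values of 0.0597 to 0.0972 in edgeR. The 2 deposited tables also ranked I/R+DMSO replicate 4 differently: it was the lowest control in counts but the second highest in FPKM, at 8.88, and on FPKM the groups overlapped, with 7.43 to 9.41 against 9.15 to 13.1.

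IGF1R, the receptor for the insulin-like growth factors, on the plus strand at chr15:98648539-98964530, was the most abundant of the 9 in counts. The 4 controls held 88.7, 111, 113 and 113 CPM and the 4 Rk2-treated libraries 112, 110, 113 and 119 CPM, in replicate order. Apart from the low control in replicate 1 the groups lay on the same level. The means of 106 ± 11.9 and 113 ± 3.82 CPM (± SD, 4 libraries each) differed by 0.09 on the log2 scale (standard error 0.0801, edgeR adjusted p = 0.468), and 0.01 without that control.

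Of the 2 adaptors, IRS2 rose and IRS1 did not pass the test. IRS2, which couples the insulin receptor to PI3K and is a main adaptor in liver, lies on the minus strand at chr13:109752698-109786568. It held 18.0, 20.7, 19.2 and 18.3 CPM in I/R+DMSO and 26.4, 28.96, 29.3 and 31.1 CPM in I/R+Rk2. The lowest treated library was clear of the highest control, and neither group spread by more than 1.91 CPM (SD). The means were 19.0 ± 1.19 and 28.95 ± 1.91 CPM (± SD, 4 libraries each), 1.52-fold apart, or 0.60 on the log2 scale (standard error 0.0712, edgeR adjusted p = 0.00169). Its FPKM also did not overlap, at 1.80 to 2.11 against 2.72 to 3.25.

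IRS1, the other main adaptor of the insulin receptor, lies on the minus strand at chr2:226731317-226799759. Its levels were 64.1, 91.0, 81.8 and 85.0 CPM in the controls and 97.8, 92.5, 96.3 and 102 CPM with Rk2. The treated libraries were all higher, but the nearest pair lay close together and the control of replicate 1 was far below its group. With means of 80.5 ± 11.6 and 97.2 ± 3.95 CPM (± SD, 4 libraries each), the log2 fold change was 0.27 (standard error 0.10, adjusted p = 0.0945 in edgeR). Without that control it was 0.18 (adjusted p = 0.0582, edgeR).

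Among the PI3K genes, PIK3CA, the alpha catalytic subunit that serves the insulin receptor, lies on the plus strand at chr3:179148114-179240093. It rose from 18.8, 15.4, 13.9 and 17.2 CPM in I/R+DMSO to 20.7, 19.9, 21.6 and 24.0 CPM in I/R+Rk2. The control of replicate 1 was the highest of its group here, just below the lowest treated library. The means were 16.3 ± 2.13 and 21.5 ± 1.75 CPM (± SD, 4 libraries each), or 0.40 on the log2 scale (standard error 0.105, edgeR adjusted p = 0.0342). This call too was lost when any 1 of 6 libraries was left out (adjusted p of 0.0512 to 0.0870 in edgeR) and held without I/R+DMSO replicate 1 or 4, and a correction for GC content took it to 0.16 (edgeR adjusted p = 0.247). Exons of KCNMB3 on the opposite strand cover 35.8% of the exon bases of PIK3CA in the GENCODE 29 annotation. The sources used here do not say whether counting used strand, so reads of the pair may not be separated.

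RICTOR, the subunit that defines mTORC2, the complex that phosphorylates AKT and SGK kinases in their hydrophobic motif, lies on the minus strand at chr5:38937919-39074408. The controls held 31.0, 24.3, 22.1 and 27.8 CPM and the treated libraries 44.8, 36.5, 37.5 and 54.8 CPM. The groups were apart, and the treated libraries spread widely, with replicates 1 and 4 highest. The means were 26.3 ± 3.90 and 43.4 ± 8.45 CPM (± SD, 4 libraries each), 1.65-fold apart, or 0.72 on the log2 scale (standard error 0.155, edgeR adjusted p = 0.0169). Without a correction for length or GC content, the call held with each library left out in turn, at log2 fold changes of 0.59 to 0.81. With GC correction RICTOR was at 0.51 (edgeR adjusted p = 0.0409). With length and GC correction it was at 0.34 and did not pass the test.

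SGK3, a kinase related to AKT that is activated downstream of PI3K at endosomes, lies on the plus strand at chr8:66667596-66862022. Its controls held 3.87, 15.5, 13.5 and 15.8 CPM and its treated libraries 21.7, 24.5, 24.7 and 23.2 CPM. All treated libraries were higher, and the control of replicate 1 held only 73 counts, beside 245 to 338 in the other controls. The means were 12.2 ± 5.63 and 23.5 ± 1.4 CPM (± SD, 4 libraries each), and the log2 fold change of 0.95 (standard error 0.369) did not pass the test (adjusted p = 0.112 in edgeR). Without that control it was 0.65 with an adjusted p of 0.00391 in edgeR, and DESeq2 on all 8 libraries gave 0.95 with an adjusted p of 0.0402. With GC correction SGK3 was at 0.77 (edgeR adjusted p = 0.187), and with length and GC correction at 0.73 (edgeR adjusted p = 0.215). C8orf44 shares 6.04% of the exon bases of SGK3 on the same strand.

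Of the 2 FOXO factors, FOXO3 rose and FOXO1 did not pass the test. FOXO3, which drives genes of stress resistance and cell death and lies on the plus strand at chr6:108559835-108684774, held 27.1, 34.7, 31.0 and 32.5 CPM in I/R+DMSO and 44.1, 44.9, 43.6 and 52.4 CPM in I/R+Rk2. The groups were far apart, with replicate 4 above the other treated libraries. The means were 31.3 ± 3.21 and 46.2 ± 4.11 CPM (± SD, 4 libraries each), 1.48-fold apart, or 0.56 on the log2 scale (standard error 0.0921, edgeR adjusted p = 0.00604). The change stayed between 0.50 and 0.61 with each library left out. FOXO1, the main FOXO factor of hepatic glucose production, lies on the minus strand at chr13:40469953-40666597. It held 28.8, 35.8, 31.8 and 36.7 CPM in the controls and 38.5, 37.5, 34.5 and 40.6 CPM with Rk2, so that the groups overlapped. Its log2 fold change was 0.18 (standard error 0.0892, adjusted p = 0.185 in edgeR). On FPKM its groups did not overlap (4.08 to 5.32 against 5.90 to 7.58), and limma on log2(FPKM + 1) gave an adjusted p of 0.0574.

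Levels can be compared between genes in FPKM, which is scaled by length. In I/R+DMSO, IGF1R (10.1 ± 3.06 FPKM, SD, n = 4), IRS1 (8.93 ± 1.84) and INSR (8.40 ± 0.909) were highest and overlapped one another. FOXO1 followed at 4.80 ± 0.572 FPKM, apart from its neighbours. FOXO3, RICTOR, SGK3 and PIK3CA lay between means of 3.53 and 2.99 FPKM and overlapped in that order, and IRS2 was lowest at 1.93 ± 0.134 FPKM. With Rk2, INSR, IRS1 and IGF1R again formed the top group, at means of 11.1, 10.7 and 9.87 FPKM. FOXO1, SGK3, FOXO3 and RICTOR overlapped at means of 6.49 to 5.27 FPKM, and PIK3CA at 3.53 ± 0.355 and IRS2 at 3.01 ± 0.219 FPKM were lowest and overlapped. IRS2, with the smallest p of the 9, was thus the least abundant per length in both groups.

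Gene length was examined because the 9 genes are long. The length behind each FPKM value was derived as the count over the FPKM and the library total, with the median over libraries. It ranged from 3.85 kb for SGK3 to 11.4 kb for IGF1R, beside a median of 2.92 kb over tested genes. All 9 lay above that median, and 7 (all but PIK3CA and SGK3) lay in the longest of 10 equal classes of length. The classes and the main length correction rest on this derived length, which followed annotated exon length only in part (Spearman's rho = 0.642). It also differed between libraries, for IGF1R from 7953 bp in I/R+DMSO replicate 2 to 13413 bp in replicate 1. By annotated exons FOXO1, at 6232 bp, was shorter than SGK3, at 6474 bp. Longer genes had higher log2 fold changes (Spearman's rho = 0.388 across genes, and genes are no independent replicates), from a median of -0.17 in the shortest class to 0.21 in the longest. In the longest class 25.0% of genes were called higher and 34.9% had groups apart, beside 1.24% and 1.7% in the shortest. The relation was 0.29 without I/R+DMSO replicate 1, the library whose own levels fell most with length (rho = -0.508, beside -0.191 to -0.00437 in the other controls and 0.216 to 0.393 with Rk2). Of the 7 members in the longest class, 4 were called higher (INSR, IRS2, RICTOR and FOXO3). Log2 fold changes also fell as GC content rose (Spearman's rho = -0.330 across genes). PIK3CA, RICTOR and SGK3 had the lowest GC content of the 9, at 34.8%, 36.5% and 38.1%.

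**Figure D2:**
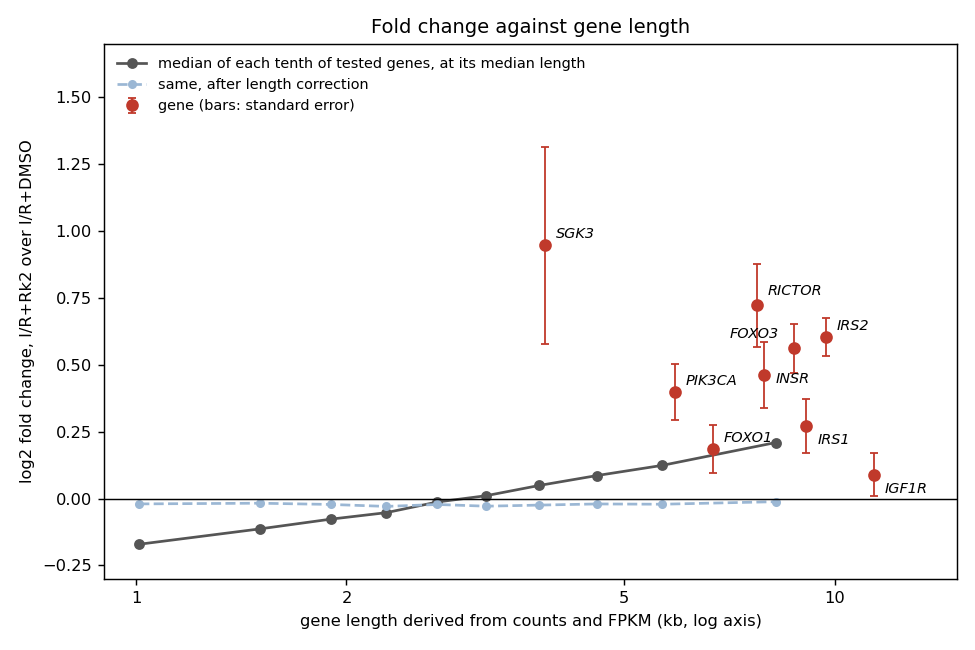
Log2 fold change of each gene (red, bars are standard errors) against its length in kb on a log axis, with the median of each of the 10 length classes in grey and the same after the length correction in blue. The grey medians climb from -0.17 to 0.21, IGF1R lies below the grey line's end, IRS1 and FOXO1 lie within about a standard error of it, and SGK3, RICTOR, IRS2, FOXO3, INSR and PIK3CA lie above it.

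Against genes of like length the members split. RICTOR was 0.51 above the median log2 fold change of its length class and exceeded 93.8% of the genes in it. IRS2 was 0.39 above and exceeded 90.0%, FOXO3 0.35 above and 87.9%, and INSR 0.25 above and 79.9%. IRS1 (0.06 above), FOXO1 (-0.03) and IGF1R (-0.12) sat near or below the middle of the longest class. PIK3CA was 0.27 above the median of its class, the 9th of the 10, and SGK3 was 0.90 above that of its class, the 7th.

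After a correction of each library for gene length, IRS2 and FOXO3 still rose and IGF1R fell, beside 7.97% of genes called higher and 9.65% called lower. IRS2 was higher by 0.36 on the log2 scale (standard error 0.0757, edgeR adjusted p = 0.0161). FOXO3 had 0.34 (standard error 0.0613, adjusted p = 0.00865 in edgeR). Corrected levels of both remained apart between the groups, at 18.1 to 22.0 against 24.6 to 27.4 CPM for IRS2 and 32.2 to 36.6 against 41.0 to 46.1 CPM for FOXO3. IGF1R turned from 0.09 to -0.18 (standard error 0.0451, adjusted p = 0.0303 in edgeR), with 110 to 125 CPM in I/R+DMSO against 101 to 105 CPM in I/R+Rk2. With annotated exon length in place of the derived length IGF1R was at -0.11 (adjusted p = 0.141, edgeR), and with the derived length it kept the call only without I/R+DMSO replicate 1 or 4 among the fits that left out 1 library.

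RICTOR, PIK3CA and INSR no longer passed, at corrected log2 fold changes of 0.51 (adjusted p = 0.0661), 0.24 (adjusted p = 0.197) and 0.24 (adjusted p = 0.306) in edgeR. IRS1 came to 0.04 and FOXO1 to 0.01. SGK3, the shortest by derived length, moved least, from 0.95 to 0.88 (adjusted p = 0.138 in edgeR). The length correction was also run with each library left out, a choice made after seeing the data. In 7 of the 8 fits only IRS2 and FOXO3 rose, with RICTOR at an adjusted p of 0.0741 to 0.149 and PIK3CA at 0.215 to 0.371 in edgeR. In the fit without I/R+DMSO replicate 1, 5 genes rose, where 7.21% of all genes did. They were IRS2 (0.38), FOXO3 (0.32), RICTOR (0.65, adjusted p = 0.0195), PIK3CA (0.36, adjusted p = 0.0268) and SGK3 (0.59, adjusted p = 0.00521) in edgeR, and IGF1R fell (-0.20, adjusted p = 0.0219). INSR came to 0.30 (adjusted p = 0.271, edgeR). Whether the length trend was made by the cells or by the libraries was not tested.

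**Figure D3:**
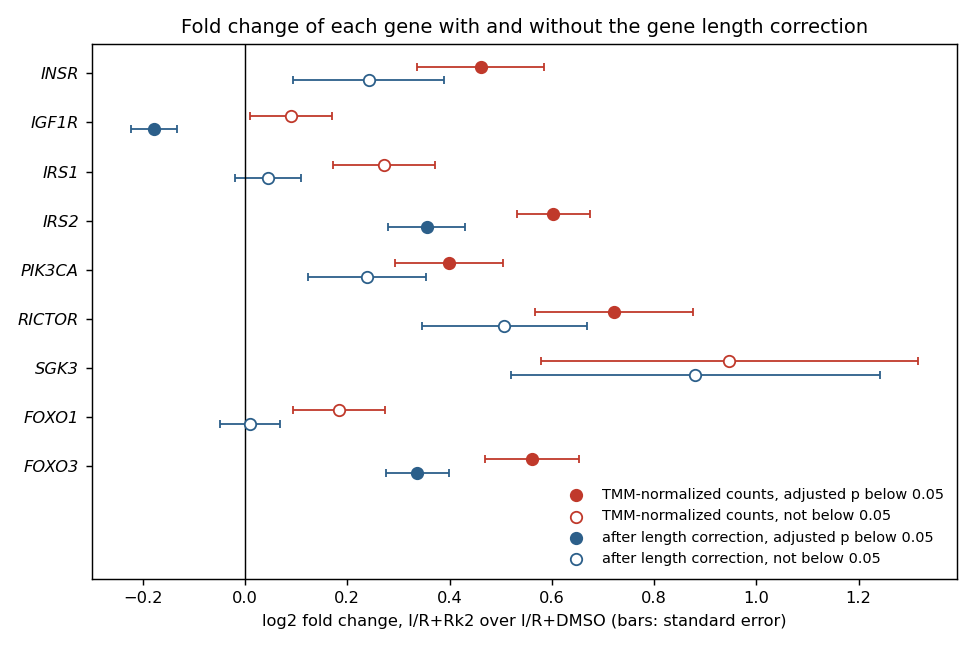
Log2 fold change of I/R+Rk2 over I/R+DMSO for each gene from TMM-normalized counts (red) and after the length correction (blue), with bars for the standard error and filled symbols for an adjusted p below 0.05. The correction moves every gene to the left, IRS2 and FOXO3 stay filled on the right, and IGF1R is filled at -0.18.

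A ratio of 2 genes within a library does not depend on how libraries are scaled, and 6 ratios of related genes were compared by a two-sided exact permutation test, whose smallest p with 4 libraries against 4 is 0.0286. The log2 ratio of FOXO3 to FOXO1, genes of 8.75 and 6.70 kb, was -0.09, -0.04, -0.03 and -0.17 in I/R+DMSO and 0.19, 0.26, 0.34 and 0.37 in I/R+Rk2. FOXO3 counts were below FOXO1 counts in every control and above them in every treated library. The difference was 0.38 (exact p = 0.0286, 0.0429 after Benjamini-Hochberg adjustment over the 6), and 0.33 on length-corrected counts (exact p = 0.0286). On FPKM it was 0.16 (exact p = 0.171).

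RICTOR relative to RPTOR, the subunit that defines mTORC1, had log2 ratios of -1.0, -1.47, -1.64 and -1.32 in the controls and -0.35, -0.67, -0.72 and -0.07 with Rk2, a difference of 0.91 (exact p = 0.0286, adjusted 0.0429). RPTOR itself fell from 67.0 ± 3.50 to 58.6 ± 2.09 CPM (± SD, 4 libraries each), or -0.19 on the log2 scale (edgeR adjusted p = 0.0373). SGK3 relative to SGK1, its relative that mTORC2 also activates, rose by 1.3 (exact p = 0.0286, adjusted 0.0429), and by 0.79 without I/R+DMSO replicate 1 (exact p = 0.0286). SGK1 alone differed by -0.15 on the log2 scale (edgeR adjusted p = 0.305). Both differences kept an exact p of 0.0286 on FPKM and on length-corrected counts. The exact p became 0.0571 for RICTOR to RPTOR without I/R+Rk2 replicate 4 (0.78) and 0.0857 for SGK3 to SGK1 without any 1 of the I/R+Rk2 libraries (1.24 to 1.33).

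The log2 ratio of INSR to IGF1R was higher with Rk2 by 0.38 (exact p = 0.0286, adjusted 0.0429), though the nearest libraries, at -0.480 and -0.477, almost touched. It was 0.22 without I/R+DMSO replicate 4, its exact p was 0.0571 to 0.114 without any 1 of the I/R+Rk2 libraries, and on FPKM it was 0.39 with an exact p of 0.143. IRS2 to IRS1, genes of like length (9.72 and 9.12 kb), differed by 0.32 (exact p = 0.0571, adjusted 0.0571), with I/R+DMSO replicate 1 inside the treated range and 0.40 without it (exact p = 0.0286). PIK3CA to PIK3CB, the beta catalytic subunit, differed by 0.41 in counts (exact p = 0.0571, adjusted 0.0571), by 0.52 without I/R+DMSO replicate 1 (exact p = 0.0286) and by -0.04 in FPKM (exact p = 0.857). PIK3CB itself held 64.6 ± 5.76 and 64.4 ± 4.70 CPM (± SD, 4 libraries each).

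**Figure D4:**
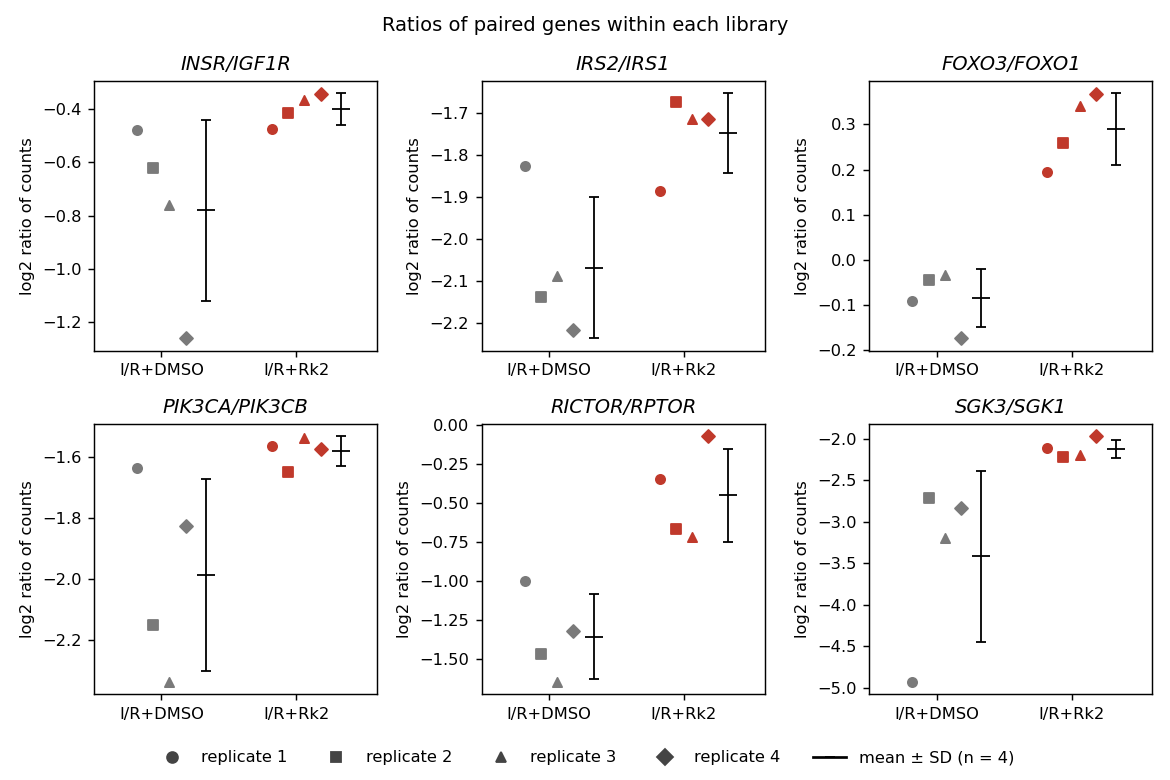
Log2 ratio of counts of 6 gene pairs within each library, with grey symbols for I/R+DMSO, red for I/R+Rk2 and black bars for mean ± SD (n = 4). The groups are clearly apart for FOXO3/FOXO1, RICTOR/RPTOR and SGK3/SGK1, almost touch for INSR/IGF1R and overlap for IRS2/IRS1 and PIK3CA/PIK3CB.

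Among the other genes of the pathway, the balance of rises and falls depended on the length correction. Of 55 further pathway genes 48 were tested, and 9 rose and 2 fell, beside 11.0% higher and 7.23% lower over all genes, with a median log2 fold change of 0.10. After the length correction 7 rose and 4 fell with a median of -0.03, beside 7.97% and 9.65% over all genes. With length and GC correction 5 rose and 6 fell, where 715 of all 12690 genes rose and 1590 fell. Without I/R+Rk2 replicate 2 or replicate 4 the 11 calls became 7, while the calls over all genes went from 2351 to 1461 and 1291. PIK3C2A, a class II PI3K of membrane traffic, rose most clearly, from 26.7 ± 2.37 to 49.1 ± 2.57 CPM (± SD, 4 libraries each), or 0.88 on the log2 scale (edgeR adjusted p = 4.32e-04). TBC1D1, a Rab regulator that AKT phosphorylates, rose by 0.40 and TSC1, which restrains the mTORC1 activator RHEB, by 0.44. The Ras exchange factors SOS1 and SOS2 rose by 0.54 and 0.41, and IGF2R, which clears IGF2 from the cell surface, by 0.41. Of these 6, all but IGF2R also rose after the length correction. SHC1, an adaptor to the Ras route, fell by 0.25 on the log2 scale (edgeR adjusted p = 0.00829).

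AKT1, the kinase at the centre of the pathway, was at 54.9 ± 4.25 CPM in the controls and 51.2 ± 2.49 CPM with Rk2 (± SD, 4 libraries each), or -0.10 on the log2 scale (edgeR adjusted p = 0.327). None of the 5 tested kinases at the membrane passed the test. In the mTOR complexes 1 of 9 tested genes rose and 1, RPTOR, fell.

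Before the length correction, genes that restrain insulin and PI3K signalling were called in both directions about as often as all genes. Of 26, 25 were tested, 2 rose and 2 fell, and the median log2 fold change was 0.01. Of all genes 18.2% were called, 11.0% as higher and 7.23% as lower. After the length correction 1 rose and 5 fell with a median of -0.08, beside 7.97% and 9.65% of all genes. With length and GC correction 1 rose and 6 fell, where 715 of all 12690 genes rose and 1590 fell. The 4 calls became 2 without I/R+Rk2 replicate 2 or replicate 3, and 1 without replicate 4. Over all genes the 2351 calls became 1461, 1512 and 1291 in these fits. GRB10 and ENPP1, inhibitors of the insulin receptor, rose by 0.26 and 0.25. SOCS3, an inhibitor of cytokine and insulin receptors, fell from 4.09 ± 0.133 to 2.49 ± 0.186 CPM (± SD, 4 libraries each), or -0.72 on the log2 scale (edgeR adjusted p = 0.00354), and PPP2CB, a catalytic subunit of the phosphatase PP2A, fell by 0.19 on the log2 scale. After the length correction GRB10 and SOCS3 kept their calls, while ENPP1 (0.07, adjusted p = 0.177 in edgeR) and PPP2CB (-0.10, adjusted p = 0.154 in edgeR) did not pass.

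Genes that FOXO factors are known to induce were called mostly as higher. Of 35, 32 were tested, 10 rose, 2 fell and the median log2 fold change was 0.17, beside the 11.0% and 7.23% of all genes given above. Leaving out I/R+Rk2 replicate 4 took the 12 calls to 7, and the calls over all genes from 2351 to 1291. KLHL24, a Kelch-family protein, rose from 6.62 ± 3.41 to 27.4 ± 1.65 CPM (± SD, 4 libraries each), or 2.06 on the log2 scale (edgeR adjusted p = 0.00579). BCL2L11, which encodes the death-promoting protein BIM, rose by 1.5 in counts with a wide spread in I/R+Rk2 (30.5 ± 11.2 CPM, SD, n = 4). The 2 deposited tables differed for BCL2L11: it spanned 9.05 to 37.1 CPM over the 8 libraries but only 6.16 to 9.71 FPKM. KLF15, a transcription factor of amino acid use in fasting, rose by 1.02 and CCNG2, a cyclin of growth arrest, by 0.84. BCL6, a transcriptional repressor, rose by 0.41 and CAT, which encodes catalase, by 0.20. TXNIP, a brake on glucose uptake, fell from 56.7 ± 2.07 to 35.1 ± 1.42 CPM (± SD, 4 libraries each), or -0.69 on the log2 scale (edgeR adjusted p = 2.02e-04), and PNPLA2, the lipase of triglyceride breakdown, fell by 0.25 on the log2 scale. After the length correction the list held 8 rises and 2 falls, with a median of 0.11, beside 7.97% and 9.65% of all genes.

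**Figure D5:**
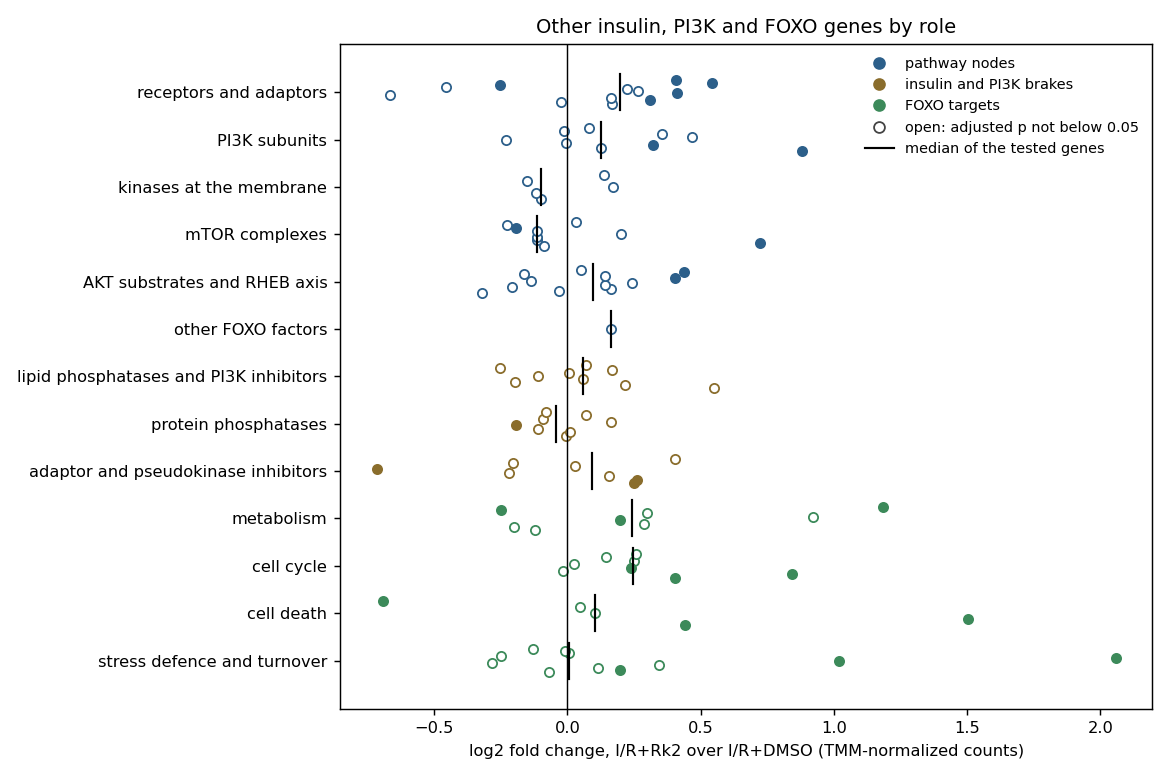
Log2 fold change of the tested genes of 3 further lists, grouped by role, with filled symbols for an adjusted p below 0.05, open symbols otherwise and a black bar at the median of each role. Rises reach 2.06 among the FOXO targets and 0.88 among the PI3K subunits, while the medians of the mTOR complexes, the kinases at the membrane and the protein phosphatases lie below 0.

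The 5 tested genes whose levels most resembled the mean standardized level of the 9 over the 8 libraries were NEMP1 (Pearson's r = 0.998), MBL2 (0.995), PTPRK (0.994), DNHD1 (0.992) and WASL (0.992). They were chosen for this likeness, and the libraries share their groups, depth and length trend. Their derived lengths of 4.27 to 6.55 kb were above the median of 2.92 kb, and 797 genes had an r above 0.9.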

How the data were processed

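RNA was sequenced in 8 libraries of HuH7 cells after OGD/R, 4 with DMSO and 4 with Rk2, grouped by the labels. The authors deposited raw gene counts and a table of FPKM values, and per the labels the processing used FastQC 0.11.5, HISAT2 2.2.1 and StringTie 1.3.3 on hg38. The counting tool, its annotation and its use of strand are not given in the sources used here. Among the count rows, 22 symbols had been turned into dates (0.111% of counts).

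The 12928 genes that reached 10 counts in 4 or more libraries were tested with edgeR 4.0.16 (R 4.3.3), TMM factors and the quasi-likelihood test, with Benjamini-Hochberg adjustment. The length correction fitted a loess curve (span 0.5) of each library's log2 level on derived length (prior count 1) and entered it as an offset. FPKM values were tested with limma 3.58.1 on log2(FPKM + 1), for genes with a mean of at least 0.5 FPKM. Fold changes on that scale understate low genes. Ratios used counts plus 0.5. DESeq2 1.42.0 was an alternative, and gene models came from GENCODE 29. In simulated data for this comparison, over 12928 genes, 187 of 200 genes changed 2-fold were recovered with 6 false calls, and the length correction took a built-in length relation from a rho of 0.810 to 0.00056. That relation was built on the same derived length that the correction fits, and all genes shared a common dispersion. The simulation therefore checks the code and not how the correction suits these libraries.

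The 9 genes and all lists were chosen with earlier results of these data known. Genes named beyond the 9 were AKT1, the ratio denominators, up to 6 called genes per list and direction by smallest p, and the 5 genes of most like pattern. Alternatives were other normalizations, filters, pseudocounts, tools, length and GC corrections, a replicate term, and each library left out. A result on some named items is not reported here.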

Additional observations from a re-analysis of the deposited data

Results flagged for a closer look

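In 48 groups of 4 values (the 9 genes and 6 ratios in CPM, FPKM or log2 ratio) each library was compared with the others of its group, and 3 values lay apart by Dixon's criterion, where chance gives about 1 in 20 groups. IGF1R in I/R+DMSO replicate 1 was at 88.7 CPM, beside 111 to 113 CPM in the other controls. FOXO3 in I/R+Rk2 replicate 4 was at 52.4 CPM, beside 43.6 to 44.9 CPM, and at 6.07 FPKM, beside 5.03 to 5.19 FPKM. Both libraries are the ends of the length relation, with rho of -0.508 and 0.393 between a library's level and gene length, and the part of that in these values was not tested. I/R+Rk2 replicate 4 was the highest of its group for 8 of the 9 genes.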

How the results depend on the processing

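FOXO3 kept its rise under all 32 alternatives and IRS2 under 31, RICTOR lost its call under 11, and INSR and PIK3CA each under 22. Of the 9 genes 5 were called, against 3 with limma on FPKM (pseudocount 1 or 0.1), the length correction, and length with GC, and 2 with limma without a filter or with exon length. Called and over 1.5-fold were 2, against 1 with upper-quartile factors, voom weights or GC correction and 0 with limma (pseudocount 1, with or without the filter), length, exon length, or length with GC. IGF1R reversed to -0.18 with length, -0.11 with exon length and -0.17 with length and GC, and FOXO1 to -0.0212 with length and GC. Of the pathway genes 11 were called, against 6, 6 and 5 with the 3 limma fits. Of the restraining genes 4 were called, against 2 in each limma fit and 7 with length and GC, and of the FOXO-induced genes 12, against 7 with limma without a filter. On FPKM the ratio differences were 0.39 for INSR/IGF1R, 0.16 for FOXO3/FOXO1 and -0.0358 for PIK3CA/PIK3CB. The length relation of 0.388 was 0.335 with exon length and 0.441 with at least 50 counts in every library. The cause of these shifts was not tested.

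Correlations between samples of the 2 groups were all near 0 (-0.148 to 0.0845). Samples of the same replicate number had -0.00945 to 0.0845, not the best match for every sample. Values this low neither show nor exclude a pairing by replicate number. With a replicate block 3 of the 9 genes were called, and with block and length correction 2, with 0 over 1.5-fold, 7 FOXO-induced genes and IGF1R at -0.18. With the block the ratio differences of 0.38 (INSR/IGF1R), 0.38 (FOXO3/FOXO1), 0.91 (RICTOR/RPTOR) and 1.3 (SGK3/SGK1) had an exact p of 0.125, the smallest that 4 pairs allow.

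Leaving out each library gave 2 to 6 genes called, 0 to 3 over 1.5-fold, 7 to 13 pathway, 1 to 5 restraining and 7 to 11 FOXO-induced genes, and a length relation of 0.290 to 0.417. These ranges include the same with the length correction, added after seeing the data. Over both sets IGF1R lay from -0.20 to 0.12, IRS1 from -0.00579 to 0.34 and FOXO1 from -0.0147 to 0.23, and with the length correction alone IGF1R was below 0 in every fit. Ratio differences ranged over 0.22 to 0.48 (INSR/IGF1R), 0.27 to 0.40 (IRS2/IRS1), 0.29 to 0.52 (PIK3CA/PIK3CB), 0.78 to 1.02 (RICTOR/RPTOR) and 0.79 to 1.53 (SGK3/SGK1).

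Over all genes 2351 were called (1416 higher, 935 lower), against 1643 higher and 684 lower by library size alone, 1246 and 1300 by upper-quartile factors, 1030 and 1248 with length, 997 and 1117 with GC, 715 and 1590 with length and GC, 1130, 1119 and 1001 in all with limma, 1515 with length and block, and 1291 without I/R+Rk2 replicate 4. The lowest count of the 9 genes, 73, limits SGK3 in I/R+DMSO replicate 1.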

Other observations

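Several relatives of the 9 genes were at or near 0 in these cells and were picked out after their values were seen. INSRR, the orphan receptor of the insulin receptor family, the PI3K gamma genes PIK3CG and PIK3R5, and the FOXO targets G6PC, FASLG and TRIM63 were listed at 0 FPKM in every library. The adaptor IRS4 had at most 1 count in a library, FOXO6 at most 3, the mTORC2 subunit PRR5L at most 5 and the lipid phosphatase INPP4B at most 2. These levels were too low to test between the groups.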
